A study of Mus musculus with 6 samples.

Results

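The BMP, TGF-beta and activin pathway was described here through 63 of the 23420 gene symbols in the deposited count tables. They were chosen by a rule on symbols, with earlier results of these data known. The rule takes in the Bmp, Gdf, Tgfb and inhibin ligands, their type I and type II receptors and the co-receptor Tgfbr3. It also takes in the Smads, the secreted antagonists with Sostdc1 among them, the pseudoreceptor Bambi and the Id genes. Of the 63 genes, 46 passed the low-count filter and were tested. RNA was sequenced from mouse lacrimal gland epithelium at E14.5, when the bud has entered the mesenchyme around the eye, after isolation by laser capture from frozen embryos. Control samples (n = 3) are titled WT and have the genotype Le-Cre in the labels. The study's methods also name Le-Cre embryos heterozygous for the 3 Pea3 family alleles as controls in general, and whether any was used here is not given in the sources used here. Pea3 TKO samples (n = 3) carried Le-Cre with Pea3 -/-, Erm fl/fl and Er81 fl/fl, and both groups were on a mixed background. Le-Cre is a transgene that drives Cre, with a GFP reporter, in the conjunctival epithelium and lacrimal gland. By the labels it was present in both groups, and Erm (Etv5) and Er81 (Etv1) were deleted only where it acts, whereas Pea3 (Etv4) was missing from every cell of the mutant embryo. The labels do not say whether each sample was a separate embryo, so p-values measure the spread between these samples, which may be technical.

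Ligands of this family are secreted dimers that bring type I and type II receptor kinases together. BMP ligands mainly lead to phosphorylation of Smad1, Smad5 and Smad9, and TGF-betas and activins to phosphorylation of Smad2 and Smad3, and all of these Smads enter the nucleus with the common Smad4. Secreted antagonists such as noggin and Sostdc1 bind BMPs, follistatin binds activins, and the Id genes are classic transcriptional targets of BMP signalling. In branching glands, BMPs and FGFs are known to have different effects on bud growth, and the comparison of Pea3 TKO with Control asks which genes depend on the Pea3 factors that act downstream of FGF in this bud.

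The libraries held 14194775 to 17860140 counts each, so that 3 counts corresponded to 0.169 to 0.21 CPM (counts divided by library size, with the TMM scaling factors of edgeR). All 3 targeted genes were lower in Pea3 TKO, with log2 fold changes of -2.95 for Etv4, -2.93 for Etv5 and -1.74 for Etv1. Of the epidermal and ocular surface markers, 9 of 10 were higher in Pea3 TKO, and their summed level was 1185 to 2426 CPM in Control and 6673 to 9154 CPM in Pea3 TKO. Of the bud epithelium markers, 4 were higher and 4 lower, with Pax6 and Cdh1 among the higher and Sox10 and Sox9 among the lower. Pea3 TKO replicates 1 and 2 stood apart, with 404 and 567 CPM of summed mesenchymal markers against 14.2 CPM in replicate 3 and 19.2 to 117 CPM in Control. They also had almost no Y-linked counts, at a mean log2 level over 4 Y-linked genes of 0.148 and 0.0721 against 4.95 to 5.31 in the other 4 libraries. Of the 10 mesenchymal markers, 2 were called higher. Over the 8 endothelial markers the sum was 2.55 to 4.29 CPM in Control and 2.47 to 8.25 CPM in Pea3 TKO. Emcn was at 0 in every library and Cdh5 did not exceed 0.0635 CPM, whereas Kdr was at 1.4 and 2.38 CPM in Pea3 TKO replicates 1 and 2 and at 0 elsewhere. The blood marker sum was 32 to 101 CPM in Control and 47.4 to 221 CPM in Pea3 TKO. Each value below is therefore followed, where the call depends on it, by the fit without Pea3 TKO replicates 1 and 2, in which the single remaining mutant sample was assumed to vary like the controls. Surface markers moved with genotype in all 6 libraries, and their part in the results was not tested. Within Pea3 TKO the order of their sums rested largely on Krt15, at 4357, 3462 and 2212 CPM in replicates 1, 2 and 3. Not every marker had this order, and Krt14 ran the other way, at 433, 651 and 746 CPM.

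Among the 46 tested members, 16 (34.8%) passed an adjusted p of 0.05 in the edgeR quasi-likelihood test, 10 higher and 6 lower in Pea3 TKO, and 30 did not pass. Over all 13087 tested genes 25.0% passed, 13.6% higher and 11.3% lower. The groups did not overlap for 23 members, 14 of them with every Pea3 TKO sample above every Control sample and 9 below, against 43.9% of all tested genes. Inhba, Smad9 and Bmp8b, 3 of the 10 higher members, passed the filter through the Pea3 TKO samples alone and so had to differ. The median log2 fold change was 0.22 for the tested members and 0.0094 for all tested genes. By role, 6 of 15 tested ligands, 2 of 6 tested antagonists, Bambi and 3 of 4 Id genes passed. So did 1 of 10 tested type I and type II receptors, the co-receptor Tgfbr3 and 2 of 8 Smads. Roles were not compared by a test. Because these are bulk samples, fewer cells of a type and less RNA per cell cannot be told apart.

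**Figure D1:**
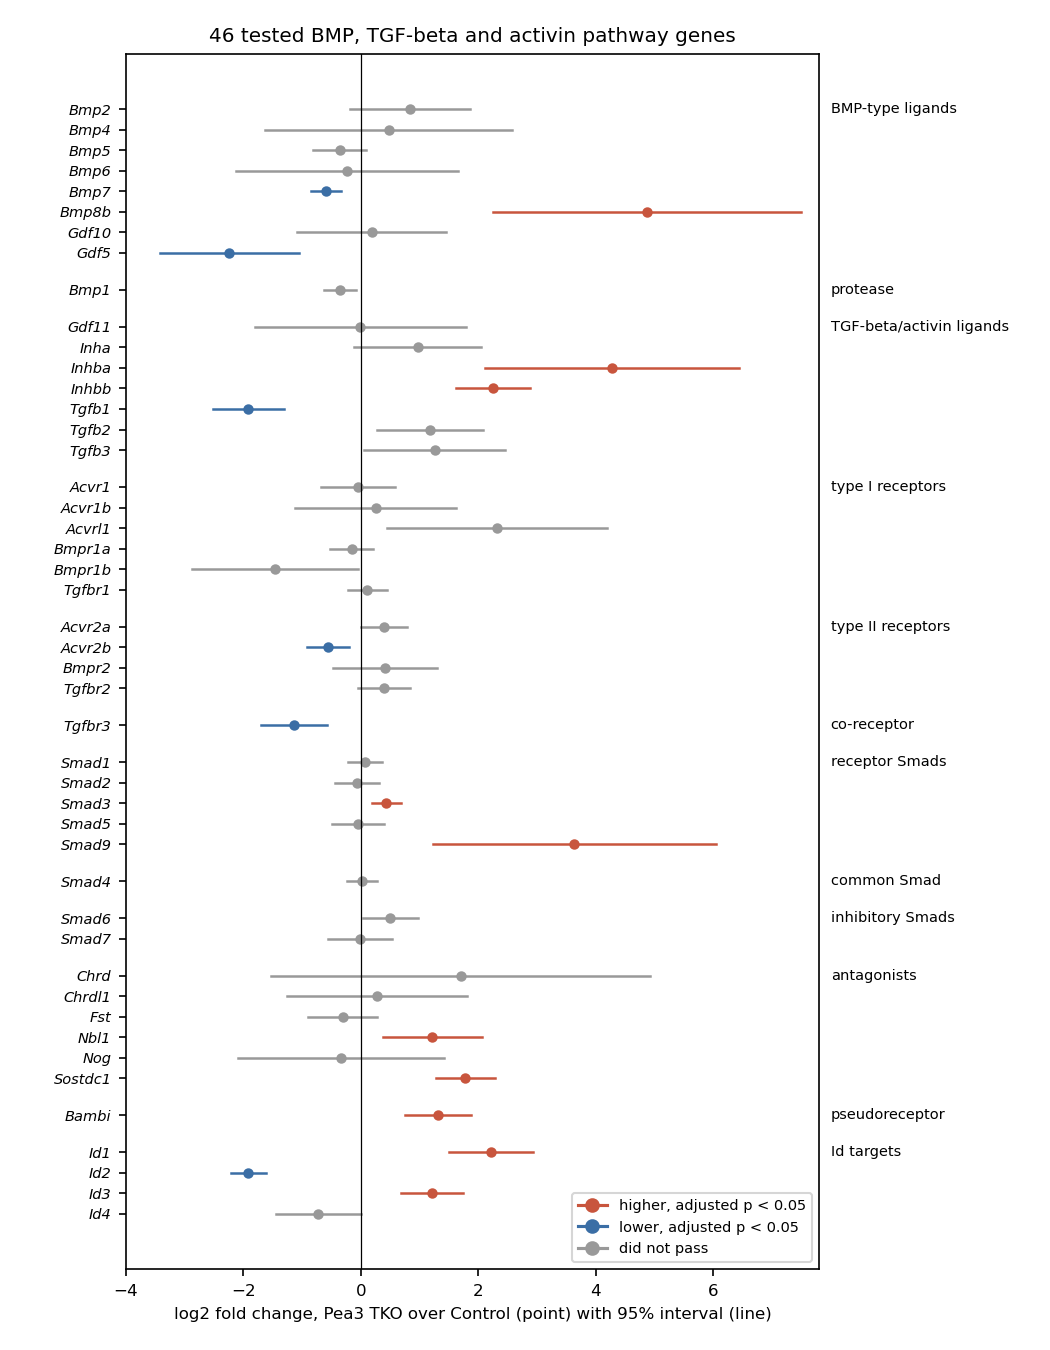
Log2 fold change of Pea3 TKO over Control (horizontal axis) for the 46 tested members, grouped by role on the vertical axis. Points are edgeR estimates, lines their 95% intervals, red is higher and blue is lower at an adjusted p under 0.05, and grey did not pass. Most receptors and Smads sit near 0, and the largest estimates, those of Bmp8b, Inhba and Smad9, rest on few counts in Control.

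Of 16 listed BMP-type ligands, 8 were tested, and Bmp7 and Gdf5 were lower and Bmp8b higher in Pea3 TKO. Bmp7, a BMP expressed in many developing epithelia, was by far the most abundant BMP ligand, at 34.3 ± 2.06 CPM per kb of exon in Control and 22.8 ± 1.31 in Pea3 TKO (SD, n = 3 each). Its level (chr2:172868012-172940321, minus strand, GRCm38) was 129, 139 and 145 CPM in Control replicates 1, 2 and 3 and 90.7, 86.8 and 97.3 CPM in the Pea3 TKO replicates. Every mutant sample lay below every control sample. The log2 fold change was -0.59 ± 0.11 (SE; adjusted p = 0.00577), or 1.5-fold lower, and without Pea3 TKO replicates 1 and 2 it was -0.49 (adjusted p = 0.151). Gdf5, a BMP-type ligand known from joint formation (chr2:155941023-155945367, minus strand), was at 5.86, 4.18 and 3.84 CPM in Control and 0.953, 0.909 and 1.06 CPM in Pea3 TKO. The groups were well separated and the mutant samples nearly alike. Its log2 fold change was -2.24 ± 0.53 (adjusted p = 0.0143), and -2.11 without the same pair of libraries (adjusted p = 0.162). Annotated exons of Gm15557 on the other strand cover 40.3% of the exonic length of Gdf5, and whether the counting used strand is not given in the sources used here.

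Bmp8b (chr4:123105165-123132099, plus strand), whose near copy Bmp8a makes the assignment of reads uncertain, was detected with 2 counts over the Control libraries and 64 over the Pea3 TKO libraries. That is 0.113, 0 and 0 CPM against 1.4, 1.89 and 0.881 CPM, a ratio of 33.4 with a 95% interval of 8.88 to 282 for counting error only. Bmp8b passed the filter through the mutant group alone, and its adjusted p of 0.0152 became 0.0682, 0.07 and 0.0639 without Control replicate 2, Control replicate 3 or Pea3 TKO replicate 2, and 0.303 without Pea3 TKO replicates 1 and 2. Bmp8a itself had 12 counts, all in Control replicate 3, and was not tested.

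The other 5 tested BMP-type ligands did not pass. Bmp5, next to Bmp7 in level, was at 21.6 ± 1.76 CPM in Control and 16.8 ± 1.75 CPM in Pea3 TKO (log2 fold change -0.36 ± 0.20, adjusted p = 0.224), with each mutant sample below each control sample. Antisense exons of Gm26903 cover 46.7% of its exonic length. Bmp2 was at 2.14, 7.91 and 5.59 CPM in Control and 10.9, 7.9 and 9.16 CPM in Pea3 TKO, and its groups overlapped at 7.91 and 7.9 CPM (log2 fold change 0.84 ± 0.46, adjusted p = 0.211). Bmp4 and Bmp6 did not exceed 3.5 CPM in any library, and Gdf10 did not exceed 5.78 CPM. Bmp1, a metalloprotease that cleaves procollagen and chordin and is a BMP in name only, was at 101 ± 7.13 and 79.2 ± 5.96 CPM (log2 fold change -0.35 ± 0.12, adjusted p = 0.0634). Its groups did not overlap. In DESeq2 its adjusted p was 0.04998.

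Among the TGF-beta and activin ligands, Tgfb1 was lower, and the activin subunits Inhba and Inhbb were higher, in Pea3 TKO. Tgfb1, the founding member of the family and a growth inhibitor of epithelial cells (chr7:25687002-25705077, plus strand), was at 36.6, 45.4 and 57.8 CPM in Control and at 8.06, 13.7 and 15.2 CPM in Pea3 TKO. The highest mutant value was below the lowest control value. Tgfb1 was 3.78-fold lower (log2 fold change -1.92 ± 0.27, adjusted p = 0.00119). It passed in all 12 alternative analyses that changed the scaling, tool, filter or model or left out 1 sample. Without Pea3 TKO replicates 1 and 2 it was -1.61 with an adjusted p of 0.05005, just short of passing.

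Inhbb, which encodes the activin beta B subunit (chr1:119415465-119422248, minus strand), was at 3.04, 3.49 and 3.25 CPM in Control and 16.3, 14.54 and 15.5 CPM in Pea3 TKO. The spread within each group was small beside the gap between them. Inhbb was 4.73-fold higher (log2 fold change 2.24 ± 0.28, adjusted p = 0.000681), and its log2 fold change was 2.26 (adjusted p = 0.0341) without Pea3 TKO replicates 1 and 2. Inhba, the beta A subunit (chr13:16011851-16031621, plus strand), had 9 counts over the Control libraries and 176 over the Pea3 TKO libraries. In CPM these were 0, 0.436 and 0.13 against 4.06, 3.78 and 3.41. All 3 mutant libraries were alike and all 3 controls close to the detection limit. The ratio was 20.4 (95% interval 10.5 to 45.4, counting error only) and the adjusted p was 0.0116, or 0.208 without Pea3 TKO replicates 1 and 2. Inhba too passed the filter through the mutant group alone. Inha, the inhibin alpha subunit that pairs with either beta subunit to form inhibins, was at 2.24 ± 0.429 and 4.39 ± 1.05 CPM and did not pass (log2 fold change 0.96 ± 0.48, adjusted p = 0.176).

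The other TGF-beta isoforms did not pass and had estimates of the opposite sign to Tgfb1. Tgfb2 was at 11, 3.93 and 4.81 CPM in Control and 15.6, 17.3 and 12 CPM in Pea3 TKO, without overlap (log2 fold change 1.17 ± 0.40, adjusted p = 0.0586). Tgfb3 was at 9.58, 3.99 and 1.89 CPM against 15.3, 14.1 and 7.75 CPM, with overlap (log2 fold change 1.26 ± 0.54, adjusted p = 0.118). In both genes Control replicate 1 was the highest control, and that library also had the most surface markers of the controls, at 2426 CPM. Within each group Tgfb3 followed the order of the surface marker sums, and Tgfb2 did not. The part of surface epithelium in these values was not tested. Without Control replicate 1 both genes passed, with adjusted p of 0.0043 for Tgfb2 and 0.0114 for Tgfb3. Tgfb2 also passed in DESeq2 and without a low-count filter (adjusted p = 0.0245 and 0.0469). Expressed per kb of exon, Tgfb1 made up 60.5%, 82.9% and 89.2% of the 3 isoforms in the Control replicates and 18.2%, 27.6% and 40.9% in the Pea3 TKO replicates. Tgfb3 was 12.9% ± 9.79 in Control and 41.5% ± 10.2 in Pea3 TKO, and Tgfb2 was 9.53% ± 5.51 and 29.6% ± 1.35. For each isoform the 2-sided exact permutation p was 0.1, the smallest that 3 samples against 3 allow. The shares are parts of the same total, so these p-values are not separate results. Gdf11 was at 0.861 ± 0.409 and 0.855 ± 0.483 CPM.

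**Figure D2:**
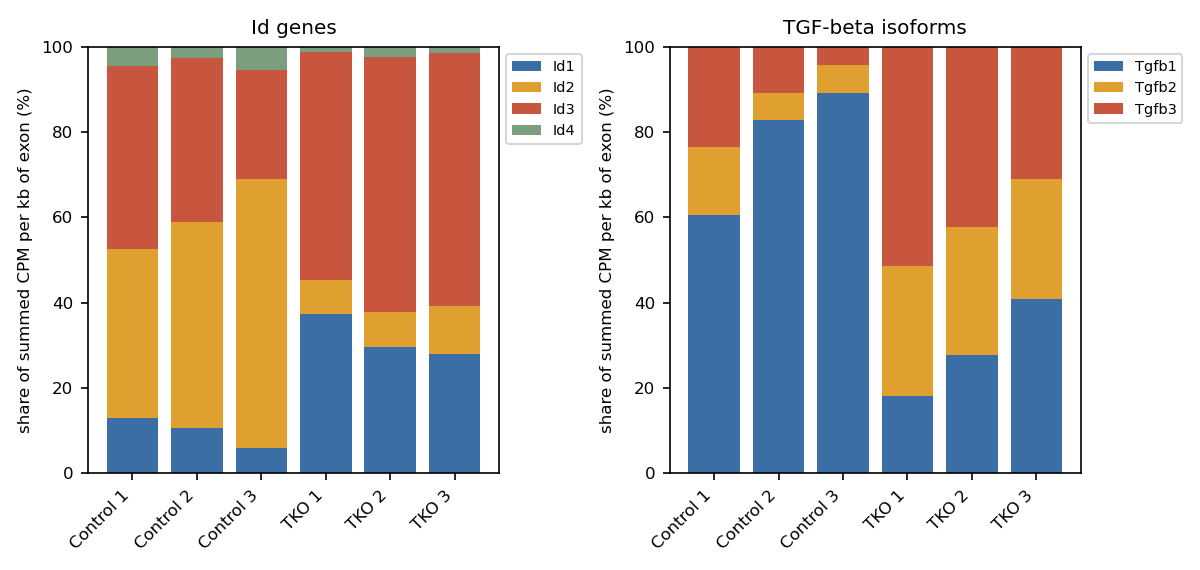
Share of each gene in the summed CPM per kb of exon of its family (vertical axis, percent), one bar per sample, for the Id genes (left) and the TGF-beta isoforms (right). In the right panel the Tgfb1 share is 60.5% or more in each Control sample and 40.9% or less in each Pea3 TKO sample.

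Tgfb1, Inhbb and Id2 passed in the same 12 alternative analyses and had a promoter in the RefSeq table used, so the bases before their start sites are shown. Promoters were found for 41 of the 63 members. Each window (250 bases before to 50 after the start) was searched on both strands for 2 ETS-type words, CCGGAAGT and CAGGAAGT, which share their last 6 letters, and for the Smad-type words GGCGCC, which is its own reverse complement, and CAGACA. The sequences below hold only bases that no annotated exon covers, 5′ to 3′ on the gene's strand, and capitals mark a searched word. For Tgfb1 (chr7:25686752-25687001, plus strand, GRCm38.p6) and Inhbb (chr1:119422249-119422498, minus strand) these are the 250 bases up to the start. For Id2 (chr12:25096254-25096342, minus strand) they are 89 bases that lie before an upstream exon of another Id2 transcript. The 89 bases are inside the annotated Id2 gene (chr12:25093799-25097140), so they are not upstream of all its transcripts.
Tgfb1: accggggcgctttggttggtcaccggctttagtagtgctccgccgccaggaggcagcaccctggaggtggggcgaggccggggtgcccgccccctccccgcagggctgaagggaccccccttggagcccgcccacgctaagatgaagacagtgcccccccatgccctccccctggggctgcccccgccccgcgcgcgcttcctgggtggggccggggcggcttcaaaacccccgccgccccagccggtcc
Inhbb: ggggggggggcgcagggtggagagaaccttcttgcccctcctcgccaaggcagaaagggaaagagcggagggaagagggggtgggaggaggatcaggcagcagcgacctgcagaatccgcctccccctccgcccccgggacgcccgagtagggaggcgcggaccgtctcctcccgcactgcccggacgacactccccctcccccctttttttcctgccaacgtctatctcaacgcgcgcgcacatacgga
Id2: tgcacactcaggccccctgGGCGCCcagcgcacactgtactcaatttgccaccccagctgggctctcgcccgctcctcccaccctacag
None of the searched words occurred in the Tgfb1 and Inhbb windows. The Id2 window held GGCGCC, beginning at position -231 from the start used, inside the annotated gene. GGCGCC occurred in 13 of the 41 members with a promoter (31.7%), in 25.0% of tested genes with one and in 11.9% of all 32851 promoters. A member or tested gene was counted if any of its promoters held the word, whereas the share of all promoters is per promoter. Of the 41 members, 30 were tested. CCGGAAGT was found in 1 member, Acvr2a, against 3.89% of all promoters and 8.89% of tested genes with a promoter. CAGGAAGT was found in 0 of 41 members against 3.33% and 3.96%, and CAGACA in 7 members against 21.0% and 18.8%. These matches describe letters in a window and no binding was measured.

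Of the receptor genes, Bmpr1a, Acvr2a and Tgfbr1 had the highest levels per kb of exon in both groups. Among 10 tested type I and type II receptors Acvr2b was the gene that passed. Bmpr1a, the principal BMP type I receptor of the bud by level, was at 162, 210 and 223 CPM in Control and 144, 198 and 192 CPM in Pea3 TKO. The samples of both groups were interleaved, and the log2 fold change was -0.16 (95% interval -0.52 to 0.21). Bmpr1a made up 89.3% ± 1.36 of the BMP type I receptor level per kb in Control and 88% ± 0.962 in Pea3 TKO (exact permutation p = 0.4). Tgfbr1, the TGF-beta type I receptor, was at 145 ± 22.9 and 157 ± 18.6 CPM (log2 fold change 0.11, 95% interval -0.22 to 0.44). These intervals leave out a change of 2-fold in either direction.

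Acvr2b, a type II receptor for activins and some BMPs (chr9:119402118-119434995, plus strand), was at 58.7, 66.4 and 65.8 CPM in Control and 51.6, 36.4 and 41.6 CPM in Pea3 TKO. Pea3 TKO replicate 1 lay closest to the controls. Acvr2b was 1.47-fold lower (log2 fold change -0.56 ± 0.16, adjusted p = 0.031). The call was lost without Control replicate 2, Control replicate 3, Pea3 TKO replicate 2 or Pea3 TKO replicate 3 (adjusted p = 0.0983, 0.0919, 0.109 and 0.0745), and without Pea3 TKO replicates 1 and 2 together (adjusted p = 0.145). Its close relative Acvr2a, the more abundant of the pair, was at 133, 151 and 145 CPM against 163, 248 and 156 CPM. Its mutant samples were all above the controls, with a log2 fold change of 0.40 ± 0.18 that did not pass (adjusted p = 0.127). Tgfbr2 was at 31.1 ± 7.11 and 40.9 ± 4.7 CPM and Bmpr2 at 8.69 ± 3.51 and 11.5 ± 4.79 CPM, and neither passed.

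Tgfbr3, also called betaglycan, presents TGF-beta2 and inhibin to the signalling receptors (chr5:107106570-107289629, minus strand). It was at 33.4, 53.5 and 69.1 CPM in Control and 25.1, 25.7 and 20.3 CPM in Pea3 TKO. The controls were spread over a wide range, and the mutant samples were below all of them. The log2 fold change was -1.13 ± 0.25 (adjusted p = 0.0104), or 2.19-fold lower, and -1.35 without Pea3 TKO replicates 1 and 2 (adjusted p = 0.136).

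Among the receptors at low level, Bmpr1b was at 3.72, 4.18 and 4.1 CPM in Control and 0.826, 2.73 and 0.822 CPM in Pea3 TKO. It was lower in each mutant sample but did not pass (log2 fold change -1.46 ± 0.63, adjusted p = 0.123), and without Pea3 TKO replicate 2 it did (-2.27, adjusted p = 0.0465). Acvrl1, best known as an endothelial receptor, was at 1.47, 0.312 and 0.195 CPM against 3.43, 4.61 and 2 CPM. Its log2 fold change was 2.32 ± 0.84 (adjusted p = 0.0706, or 0.0303 in DESeq2 and 0.0148 without Control replicate 1). Of the 8 endothelial markers 2 were tested, Flt4 and Pecam1, and neither passed. Flt4, another endothelial receptor gene, was at 0.0623 to 0.78 CPM in Control and 0.489 to 3.37 CPM in Pea3 TKO. Pecam1 had an estimate of the opposite sign, at 1.73 ± 1.61 CPM in Control and 0.523 ± 0.541 CPM in Pea3 TKO. Of the untested markers, Tek was at 3.44, 0.187 and 0 CPM in Control and 0, 4.89 and 0.176 CPM in Pea3 TKO. Kdr was at 0 CPM in Control and at 1.4, 2.38 and 0 CPM in Pea3 TKO. The part of endothelial RNA in the Acvrl1 value was not tested. Acvr1 was at 14 ± 3.7 and 13.6 ± 3.05 CPM and Acvr1b at 2.44 ± 0.957 and 2.9 ± 1.58 CPM, both with overlapping groups.

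Of 8 tested Smad genes, Smad3 and Smad9 were higher in Pea3 TKO and 6 did not pass. Smad4, the partner shared by both branches of the pathway, was the most abundant Smad per kb of exon, at 66.1 ± 4.76 in Control and 66.8 ± 5 in Pea3 TKO. Its log2 fold change of 0.015 had a 95% interval of -0.24 to 0.27. Smad1, Smad5 and Smad2 were at 96.6, 103 and 123 CPM on average in Control and 101, 98.9 and 118 CPM in Pea3 TKO, with log2 fold changes of 0.07, -0.05 and -0.06.

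Smad3, which with Smad2 carries TGF-beta and activin signals (chr9:63646767-63757994, minus strand), was at 93.5, 98.1 and 103 CPM in Control and 127, 131 and 138 CPM in Pea3 TKO. The samples of each group were close together and did not overlap with the other group. Smad3 was 1.35-fold higher (log2 fold change 0.43 ± 0.11, adjusted p = 0.0199). The call was lost without Control replicate 2, Control replicate 3, Pea3 TKO replicate 2 or Pea3 TKO replicate 3 (adjusted p = 0.0732, 0.0527, 0.0613 and 0.0566), while the estimate stayed between 0.39 and 0.46. Without Pea3 TKO replicates 1 and 2 it was 0.50 (adjusted p = 0.129).

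Smad9, the least abundant of the BMP Smads (chr3:54755582-54801257, plus strand), had 4 counts over the Control libraries and 50 over the Pea3 TKO libraries. The levels were 0.169, 0.0623 and 0 CPM against 1.33, 1.26 and 0.646 CPM, a ratio of 13.1 (95% interval 4.79 to 49.8, counting error only). It passed the filter through the mutant group alone, at an adjusted p of 0.035. Without Control replicate 2 or 3, or Pea3 TKO replicate 1, 2 or 3, the adjusted p was 0.131, 0.128, 0.11, 0.11 and 0.0576. It was 0.0652 with the replicate number as a block, 0.096 without a low-count filter and 0.46 without Pea3 TKO replicates 1 and 2. The inhibitory Smads, which are induced by the pathway and restrain it, did not pass. Smad6 was at 23.7, 22 and 16.8 CPM in Control and 33.8, 29.9 and 24.9 CPM in Pea3 TKO, without overlap (log2 fold change 0.50 ± 0.21, adjusted p = 0.109). Smad7 was at 15.7 ± 3.71 and 15.6 ± 1.28 CPM.

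The antagonist Sostdc1 and the pseudoreceptor Bambi were higher in Pea3 TKO, and Nbl1 passed with all libraries but not without several of them. Sostdc1, a secreted inhibitor of BMPs that also acts on Wnt signalling and is known from teeth, hair and kidney (chr12:36314139-36318452, plus strand), was at 33.9, 28.9 and 25.4 CPM in Control and 102, 131 and 70.2 CPM in Pea3 TKO. Even the lowest mutant sample, replicate 3, was above all controls. Within Pea3 TKO Sostdc1 had the order of the mesenchymal marker sums (404, 567 and 14.2 CPM). Within Control it had the reverse of their order (19.2, 24.4 and 117 CPM). The part of mesenchymal RNA in the Sostdc1 value was not tested. Sostdc1 was 3.43-fold higher (log2 fold change 1.78 ± 0.23, adjusted p = 0.000697) and passed in the 12 alternative analyses. Without Pea3 TKO replicates 1 and 2 the log2 fold change was 1.27 (adjusted p = 0.0316). Per kb of exon Sostdc1 went from 16.5 ± 2.42 to 56.7 ± 17.1 CPM.

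Bambi encodes a receptor-like protein without a kinase domain that dampens TGF-beta and BMP signals (chr18:3507923-3516404, plus strand). It was at 44.5, 28.2 and 20 CPM in Control and 83.3, 71.9 and 76 CPM in Pea3 TKO. Control replicate 1 was the highest control but stayed below the mutant samples. The log2 fold change was 1.32 ± 0.25 (adjusted p = 0.00557), or 2.49-fold higher, and 1.31 without Pea3 TKO replicates 1 and 2 (adjusted p = 0.112).

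Nbl1, a DAN-family antagonist of BMPs (chr4:139082284-139092993, minus strand), was at 54.3, 33.2 and 25.9 CPM in Control and 119, 104 and 40.8 CPM in Pea3 TKO. Pea3 TKO replicate 3 lay within the control range, and the other mutant samples were those with high mesenchymal markers. Among the controls, replicate 3 had the highest mesenchymal marker sum (117 CPM) and the lowest Nbl1. Control replicate 1 had the lowest sum (19.2 CPM) and the highest Nbl1. Within each group Nbl1 followed the order of the surface marker sums. These sums were 2426, 1274 and 1185 CPM in Control and 9154, 8028 and 6673 CPM in Pea3 TKO. The log2 fold change was 1.22 ± 0.38 (adjusted p = 0.0418). The adjusted p was 0.132, 0.131, 0.158 and 0.125 without Control replicate 2, Control replicate 3, Pea3 TKO replicate 1 or Pea3 TKO replicate 2, and it was 0.0791 in DESeq2. Without Pea3 TKO replicates 1 and 2 the log2 fold change was 0.12 (adjusted p = 0.892), and with Y-linked expression as a covariate it was 0.15 (adjusted p = 0.873). Both fits rest mainly on Pea3 TKO replicate 3, and the part of mesenchymal or surface RNA in the Nbl1 value was not tested.

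Follistatin (Fst), the activin-binding antagonist, was the most abundant of the other antagonists. It was at 43.6, 61.1 and 51.8 CPM in Control and 26, 58.3 and 41.9 CPM in Pea3 TKO, with overlap (log2 fold change -0.31 ± 0.26, adjusted p = 0.43). Noggin (Nog) did not exceed 1.97 CPM and Chrd 1.96 CPM, and Chrdl1 did not exceed 3.99 CPM. None of the 4 passed in edgeR, in DESeq2 or at an unadjusted p of 0.05.

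**Figure D3:**
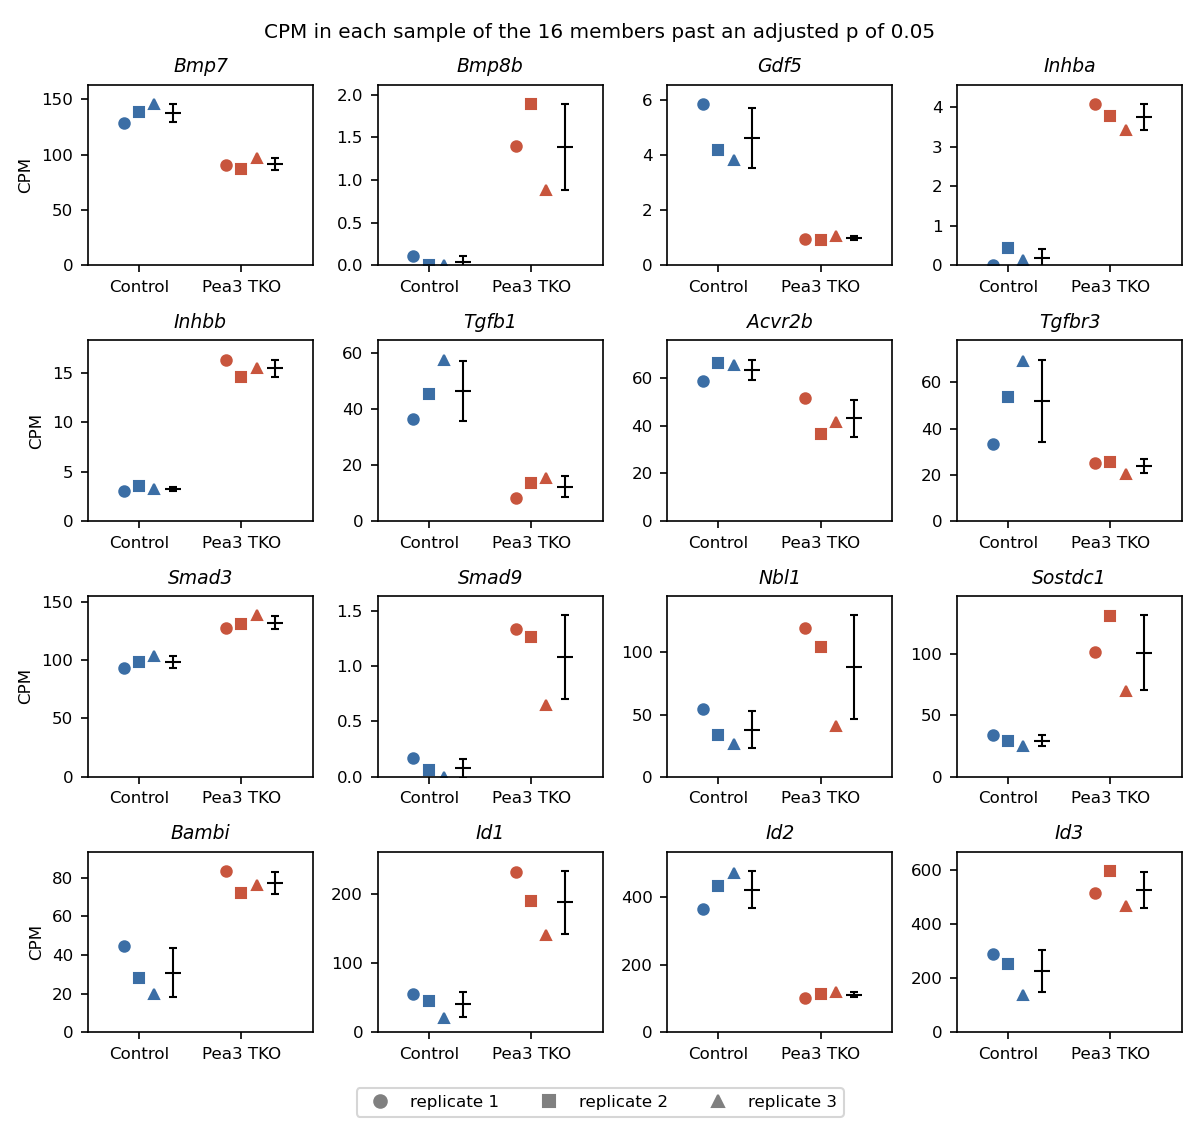
CPM in each sample (vertical axis, starting at 0) of the 16 members past an adjusted p of 0.05, one panel per gene, blue for Control and red for Pea3 TKO, with marker shapes for replicates 1 to 3. Black bars give the mean ± SD of 3 samples. Nbl1 is the one panel in which the groups overlap, at 40.8 CPM in Pea3 TKO replicate 3 and 54.3 CPM in Control replicate 1.

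The Id genes split, with Id2 lower and Id1 and Id3 higher in Pea3 TKO. They encode helix-loop-helix proteins without a DNA-binding region, which hold bHLH transcription factors away from DNA. Id2 (chr12:25093799-25097140, minus strand) had the smallest p of all members and was at 363, 430 and 470 CPM in Control and 102, 113 and 119 CPM in Pea3 TKO. No mutant sample came near the controls. Id2 was 3.77-fold lower (log2 fold change -1.92 ± 0.13, adjusted p = 2.62e-05), with a log2 fold change of -1.81 without Pea3 TKO replicates 1 and 2 (adjusted p = 0.0078).

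Id1 (chr2:152736251-152737410, plus strand), the member used most often as a readout of BMP signalling, was at 55.9, 45.2 and 20.7 CPM in Control and 233, 191 and 142 CPM in Pea3 TKO. The order of libraries within each group was that of the surface marker sums (2426, 1274 and 1185 CPM in Control and 9154, 8028 and 6673 CPM in Pea3 TKO). In Pea3 TKO the order of the sums was largely that of Krt15, and Krt14 and Sfn had the opposite order. The part of surface epithelium in the Id1 values was not tested. Id1 was 4.63-fold higher (log2 fold change 2.21 ± 0.32, adjusted p = 0.00137), with a log2 fold change of 1.82 without Pea3 TKO replicates 1 and 2 (adjusted p = 0.0701). Id3 (chr4:136143497-136145755, plus strand) was at 290, 253 and 139 CPM in Control and 516, 595 and 465 CPM in Pea3 TKO. Control replicate 3 was the lowest for Id3 as it was for Id1, and the groups did not overlap. Its log2 fold change was 1.21 ± 0.23 (adjusted p = 0.00581), or 2.31-fold higher, and 1.05 without the same pair (adjusted p = 0.143). Id4 was at 62.9, 36.8 and 64 CPM against 23.8, 51.7 and 23.6 CPM and did not pass (log2 fold change -0.73 ± 0.32, adjusted p = 0.131). Pea3 TKO replicate 2 was its only mutant value inside the control range, and without that library Id4 passed (-1.20, adjusted p = 0.0198).

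Id2 had a smaller share of the summed Id level in Pea3 TKO. Per kb of exon, Id2 accounted for 39.7%, 48.2% and 63.2% of the summed Id level in the Control replicates and for 7.83%, 8.34% and 11.2% in the Pea3 TKO replicates. Id3 had 43.1%, 38.6% and 25.5% in Control and 53.7%, 59.7% and 59.4% in Pea3 TKO, so that it led in every mutant library and in Control replicate 1, and Id2 led in the other controls. Id1 went from 9.78% ± 3.57 to 31.6% ± 5.03 and the Id3 mean from 35.7% ± 9.16 to 57.6% ± 3.42 (SD, n = 3 each). Within every library the ratio of Id1 to Id2 does not depend on library scaling. Its log2 was -2.7, -3.25 and -4.5 in Control and 1.18, 0.753 and 0.251 in Pea3 TKO, so that Id1 counts exceeded Id2 counts in each mutant library and in none of the controls. The ratio of Id1 to Id3 was below 1 in all 6 libraries. For each of the 4 Id shares the exact permutation p was 0.1, the smallest possible, and as parts of the same total they are not separate results.

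**Figure D4:**
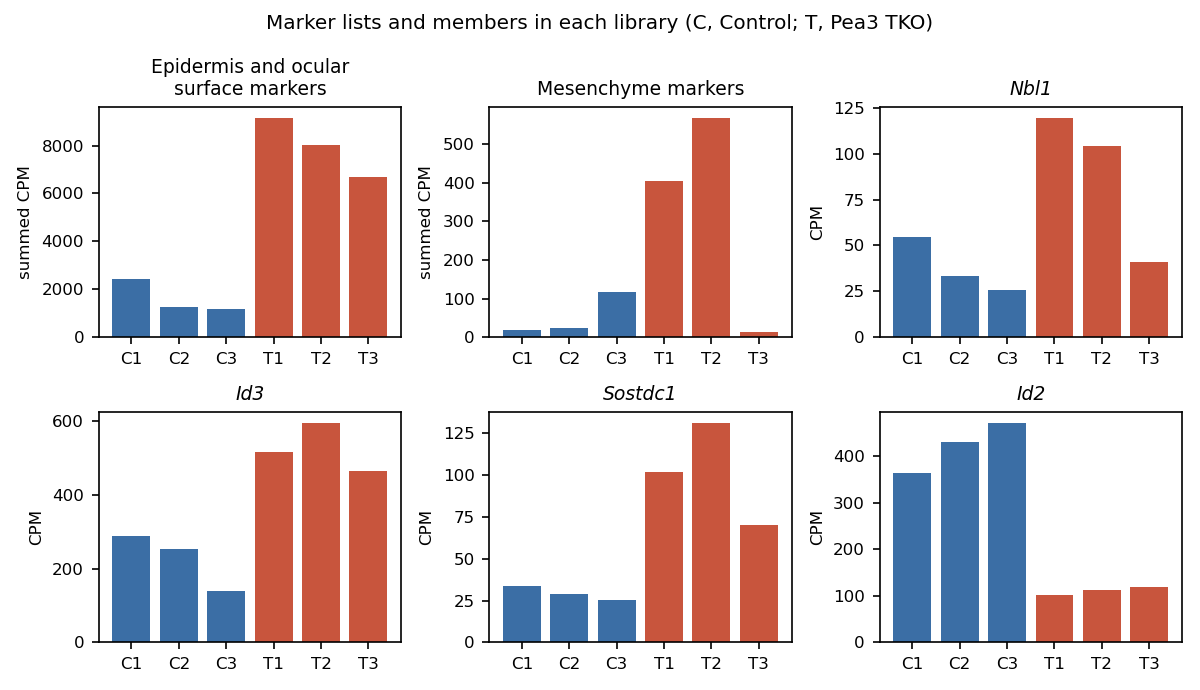
Summed CPM of the surface and mesenchyme marker lists and CPM of Nbl1, Id3, Sostdc1 and Id2 (vertical axes, starting at 0) in each of the 6 libraries, with C for Control and T for Pea3 TKO. Nbl1 is high in T1 and T2, the libraries with 404 and 567 CPM of mesenchymal markers, and low in T3, whereas Id2 is at 102 to 119 CPM in all 3 mutant libraries. The surface marker sum falls from C1 to C3 and from T1 to T3, as Nbl1 does. C3 has the most mesenchymal markers of the controls.

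Without Pea3 TKO replicates 1 and 2, Inhbb, Sostdc1 and Id2 passed, and with Y-linked expression as a covariate Inhbb, Tgfb1, Sostdc1, Id1 and Id2 passed. The other calls had an adjusted p of 0.05005 to 0.892 in the first fit and 0.0579 to 0.873 in the second. All 16 estimates kept their sign in both, but these fits are not separate checks. Pea3 TKO replicates 1 and 2 alone lacked Y-linked counts, so with the covariate too the genotype estimate rests mainly on Pea3 TKO replicate 3. The log2 fold change of Id2 was -1.81 in the first fit and -1.84 in the second. In the first of these fits the log2 fold change went from 4.87 to 4.26 for Bmp8b, from 3.63 to 2.93 for Smad9 and from 1.78 to 1.27 for Sostdc1. Single controls also moved the low-count genes. Without Control replicate 1 the estimate was 7.45 for Bmp8b, 4.77 for Smad9 and 3.68 for Inhba, against 4.28 for Inhba with all samples, and without Control replicate 2 it was 5.75 for Inhba. The mutant libraries that lack Y-linked counts are also those with high mesenchymal markers, so embryo sex and mesenchymal content cannot be told apart here.

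**Figure D5:**
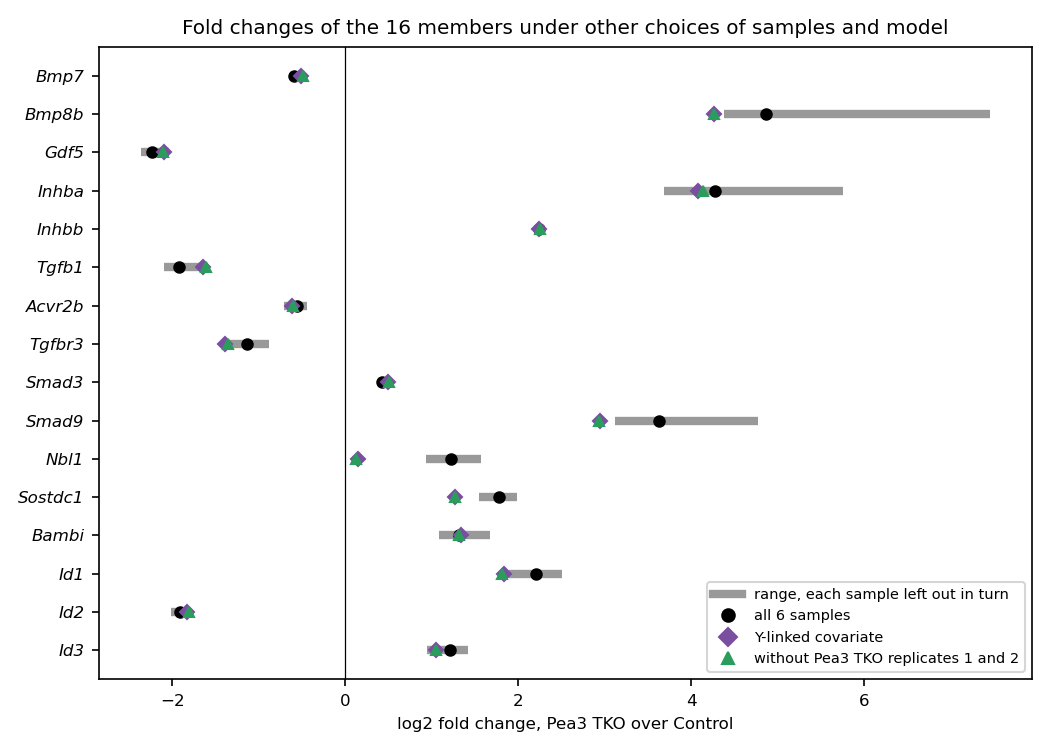
Log2 fold change of Pea3 TKO over Control (horizontal axis) of the 16 members that passed. Black points use all 6 samples, grey bars span the 6 fits that each leave out 1 sample, purple diamonds add Y-linked expression as a covariate and green triangles leave out Pea3 TKO replicates 1 and 2. No symbol crosses 0, and Nbl1 comes closest, at 0.15 and 0.12.

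Members below the filter numbered 17 and none exceeded 1.52 CPM in any library, the value of Gdf15 in Control replicate 1. Bmp10, Bmp15, Gdf1, Gdf2, Gdf6, Grem1, Inhbc and Inhbe had 0 counts in all 6 libraries, which allows a level of up to 0.169 to 0.21 CPM per library. The exons of Gdf1 lie wholly within those of Cers1, so reads there may not have been assigned to it. Bmp3, Gdf3, Gdf7, Gdf9, Acvr1c and Chrdl2 had 1 to 15 counts in single libraries. Grem1, a BMP antagonist known from limb and kidney, was thus not detectable at this depth.

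Pathway genes outside the symbol rule were taken from 3 written lists. In all, 61 were tested, 13 were higher and 7 lower (32.8%, beside 25.0% of all tested genes). Of 19 tested extracellular modulators, 6 were higher and 1 was lower (31.6% and 5.26%, beside 13.6% and 11.3% of all tested genes). Itgb6, an integrin subunit that releases TGF-beta from its latent form, was at 3.52 ± 0.866 CPM in Control and 22.4 ± 2.76 CPM in Pea3 TKO (log2 fold change 2.66 ± 0.28, adjusted p = 0.000316). Lrrc32, which holds latent TGF-beta at the cell surface, had 0 counts in Control and 147 in Pea3 TKO, a ratio with an exact 95% lower limit of 41.1 for counting error only. It passed the filter through the mutant group alone (adjusted p = 0.00433, or 0.142 without Pea3 TKO replicates 1 and 2). Rgmb, a BMP co-receptor, was at 29.3 ± 2.9 and 60.4 ± 11.3 CPM (log2 fold change 1.04 ± 0.17, adjusted p = 0.00274, or 0.0663 without the same pair). Ltbp1, a matrix protein that binds latent TGF-beta, was lower, at 416 ± 90.7 and 258 ± 27.5 CPM (log2 fold change -0.69 ± 0.16, adjusted p = 0.0139), and missed the threshold without Control replicate 3 (adjusted p = 0.0521) or Pea3 TKO replicates 1 and 2 (adjusted p = 0.112).

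All 26 intracellular modulators were tested, and the 5 that passed were lower in Pea3 TKO. That is 19.2% of them, beside 25.0% of all tested genes called in either direction and 11.3% called lower. Ctdspl, a phosphatase of the small C-terminal domain family, was at 149 ± 6.88 and 74.2 ± 9.96 CPM (log2 fold change -1.01 ± 0.13, adjusted p = 0.000814). The ubiquitin ligase Wwp1 was at 50.6 ± 8.89 and 27.6 ± 2.21 CPM (adjusted p = 0.00615, or 0.117 without Pea3 TKO replicates 1 and 2). The corepressor Tgif2 was at 85.6 ± 4.95 and 60 ± 4.7 CPM (adjusted p = 0.0178). Its call was lost without Control replicate 2, Control replicate 3 or Pea3 TKO replicate 2 (adjusted p = 0.0595, 0.0701 and 0.0534) or without Pea3 TKO replicates 1 and 2 (adjusted p = 0.241). Of 16 tested response genes, 7 were higher and 1 was lower (43.8% and 6.25%, beside 13.6% and 11.3% of all tested genes). Cdkn2b, an inhibitor of cell cycle kinases and a known TGF-beta target, was at 1.11 ± 0.657 CPM in Control and 19.6 ± 2.74 CPM in Pea3 TKO (log2 fold change 4.12 ± 0.43, adjusted p = 0.000253, and 4.73 without Control replicate 1). Junb was at 15.2 ± 4.4 and 63.9 ± 4.3 CPM and Lmo7 at 19.1 ± 4.94 and 51.4 ± 4.39 CPM (adjusted p = 0.000239 and 0.00133). Ctgf, a matricellular protein gene induced by TGF-beta, was lower, at 35.8 ± 6.87 and 9.7 ± 3.11 CPM (log2 fold change -1.89 ± 0.28, adjusted p = 0.00163, and -2.54 without Pea3 TKO replicates 1 and 2). Many of these response genes have inducers other than this pathway.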

How the data were processed

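The deposited data are raw read counts per gene symbol, 1 table per sample for 3 Control and 3 Pea3 TKO samples, made by the authors and not normalized. RNA was amplified (Ovation RNA-seq System V2) after laser capture. The submitters' processing notes name bcl2fastq 2.17, STAR 2.5.2b, featureCounts 1.5.0-p3, DESeq and the build mm10. Amplification can distort low counts, and the counting settings (strand, multiple hits, annotation) are not given in the sources used here. The study's methods state no test for these fold changes, so edgeR was used.

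Counts were filtered with filterByExpr of edgeR 4.0.16 (R 4.3.3; minimum count 10, about 0.628 CPM in 3 samples), which kept 13087 of 23420 genes. They were scaled by TMM and compared with the quasi-likelihood test, in a model of genotype alone, and p-values were adjusted over all tested genes by the Benjamini-Hochberg method, with a threshold of 0.05. CPM used TMM library sizes, values are mean ± SD (n = 3), and the SE was obtained from the F statistic (log2 fold change over the root of F, without sign). The common biological coefficient of variation was 0.259. No replicate pair agreed within sampling noise (chi-square per degree of freedom at least 15.5). Intervals of count ratios are exact, at 95%, and cover counting error only.

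The members and the gene lists were chosen with earlier results of these data known. Members past the threshold are given in every sample, tested members that did not pass by level and log2 fold change, and of each other list up to 3 genes per direction with the smallest p among those past the threshold. Positions and exonic lengths are from GENCODE M21 (GRCm38), matched by symbol, and promoters from RefSeq on GRCm38.p6. Same-numbered samples deviated together at r of -0.064 to 0.144, so the numbers were not taken as pairs. Alternatives were RLE factors, DESeq2 1.42.0, no filter, a filter of 1 CPM in 3 samples, a replicate block, a covariate of Y-linked expression and each sample left out. The fit without Pea3 TKO replicates 1 and 2 was added after seeing the data. Some single genes are not reported here.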

Additional observations from a re-analysis of the deposited data

How the results depend on the processing

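Of the 46 tested members, 16 passed in the main analysis. The count was 16 with RLE factors, 18 of 52 tested members with DESeq2, 16 without a filter and 14 with the 1 CPM filter. It was 11 (without Control replicate 2 or 3) to 19 (without Control replicate 1) when 1 sample was dropped. The number tested changed with filter and tool. DESeq2 called 3943 of 14963 genes and kept 15 of the 16 members, with Nbl1 lost. Without a filter 15 were also kept, with Smad9 lost and Tgfb2 gained. The 14 called with the 1 CPM filter were without Bmp8b and Smad9. With the replicate block 17 members passed, with Smad9 lost and Tgfb2 and Tgfb3 gained (adjusted p = 0.0347 and 0.0239). In that fit 3191 of all genes and 21 other pathway genes passed. This pairing, which the labels do not state, changed no other call among the members. With Y-linked expression as a covariate 5 members, 865 of all genes (3268 in the main analysis) and 10 other pathway genes (20) passed, and the members' median log2 fold change was -0.0099 (0.216). Without Pea3 TKO replicates 1 and 2, an alternative chosen after seeing the data, the values were 3, 597, 7 and 0.0462. In the latter fit a single mutant library carries the comparison, so fewer samples enter it. The covariate fit rests mainly on that same library, because Pea3 TKO replicates 1 and 2 alone had almost no Y-linked counts. The 2 fits are therefore not separate checks. When 1 sample was dropped, all genes ranged from 1948 (without Control replicate 3) to 3344, other pathway genes from 14 to 22 and the median from 0.0776 (without Pea3 TKO replicate 1) to 0.439 (without Pea3 TKO replicate 3). The cause of the other shifts was not tested. No member that passed changed sign in any alternative, and Inhbb, Tgfb1, Sostdc1, Id1 and Id2 passed in all 12 others than the fit without both Pea3 TKO replicates 1 and 2. Members under about 2 CPM in a group are limited by depth.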
